A study of Rattus norvegicus with 22 samples.

Results

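Cp encodes ceruloplasmin, a copper-carrying enzyme that oxidises iron as it leaves cells. Its read counts and those of 8 other iron handling genes (Heph, Slc40a1, Tf, Tfrc, Slc11a2, Fth1, Aco1 and Ireb2) were examined in the nucleus accumbens (NAc), a brain region involved in reward, of rats that consumed ethanol (EtOH). The 9 genes were taken by exact symbol from the 17310 symbols listed in the count files, and all 9 were found. Cp was selected on its read counts in experiment 1, where it was higher in the EtOH rats, so its values in that comparison are a description and were not tested. The other 8 genes were chosen for their place in iron handling.

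RNA came from the NAc of 22 adult male Wistar rats, an outbred strain, with 1 library for each rat. In experiment 1, 5 rats drank water only and 5 had free access to a 6 v/v % EtOH bottle beside water for 8 weeks. In experiment 2, all 12 rats had the 6 v/v % EtOH bottle beside water in a first period of 4 weeks, which was followed by gavage for 3 weeks and by 2 further weeks with the bottle. The gavage delivered 2.5 g/kg of EtOH (30 v/v %) 2 times a day to 6 of the rats, and water to the other 6. The control rats of experiment 2 therefore also drank EtOH, and no group of that experiment had water only. Core and shell of the NAc were in the same sample, so every value is an average over neurons, glia and vessels, and fewer cells of a type cannot be told apart from less RNA per cell.

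Iron reaches cells bound to transferrin, which is taken up by the transferrin receptor, and is moved out of endosomes by the transporter encoded by Slc11a2. Inside the cell it is stored in ferritin, and the iron regulatory proteins encoded by Aco1 and Ireb2 bind the transcripts of ferritin and of the transferrin receptor and adjust their translation and stability to the iron supply. Iron leaves through ferroportin, encoded by Slc40a1, and the ferroxidases ceruloplasmin and hephaestin oxidise it on the way. In the brain, ceruloplasmin is made mainly by astrocytes, in large part in a form anchored to the membrane, and is also produced by the choroid plexus and the coverings of the brain.

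The reads counted on genes numbered 2962291 to 5247386 in the rats of experiment 1 and 6713617 to 8765472 in those of experiment 2. Only the libraries of experiment 2 were strand-specific, so each experiment was compared on its own. The NAc label was checked with 14 markers of medium spiny neurons, the main neurons of this region, of which 13 were listed, all detected. Their summed level lay between 3608 and 7005 CPM in experiment 1 and between 5040 and 9966 CPM in experiment 2. CPM are counts scaled to the reads that a library had on genes, adjusted by its normalization factor. Across 8655 genes tested in each experiment, edgeR (quasi-likelihood test, Benjamini-Hochberg adjustment) called 0 genes at a false discovery rate (FDR) under 0.1 in either, with a lowest FDR of 0.544 in experiment 1 and 0.681 in experiment 2. Unadjusted p-values under 0.05 were given to 481 genes in experiment 1, or 5.56%, and to 114 genes in experiment 2, or 1.32%. The common biological coefficient of variation of edgeR, for rats of a group and without counting noise, was 11.1% in experiment 1 and 31.4% in experiment 2.

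Reference DNA is shown so that the gene the comparison started from can be seen beside the transferrin receptor gene. Printed are the 250 bases before the annotated start of Cp at chr2:104368420-104368669 (plus strand) and of Tfrc at chr11:81690319-81690568 (minus strand), from RefSeq for the GRCr8 assembly, 5′ to 3′, with a match to the letters ACGTG in capitals.
Cp: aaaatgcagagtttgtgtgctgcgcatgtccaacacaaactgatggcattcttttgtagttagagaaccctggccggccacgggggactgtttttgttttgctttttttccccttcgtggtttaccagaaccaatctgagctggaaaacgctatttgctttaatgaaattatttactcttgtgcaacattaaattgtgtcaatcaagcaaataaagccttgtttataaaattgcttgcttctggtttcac
Tfrc: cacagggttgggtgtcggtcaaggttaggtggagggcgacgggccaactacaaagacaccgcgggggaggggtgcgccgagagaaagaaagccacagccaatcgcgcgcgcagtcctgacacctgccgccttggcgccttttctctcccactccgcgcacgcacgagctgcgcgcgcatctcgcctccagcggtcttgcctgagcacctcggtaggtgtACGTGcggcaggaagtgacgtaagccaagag
Windows of 300 bases, which add the first 50 transcribed bases, were searched on both strands for ACGTG (the core of hypoxia response elements), TGACNNNGC (the core of antioxidant response elements) and TTCNNNGAA (the interferon-gamma activated site). These letters occur in 19.3%, 12.1% and 8.87% of the 33469 rat windows. Of the 9 genes, 8 have a window and Fth1 was not matched. The only match among them was the ACGTG of Tfrc at 31 to 27 bases before the start, and the windows of Cp, Heph, Slc40a1, Tf, Slc11a2, Aco1 and Ireb2 held none of the 3 motifs.

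The comparison of experiment 1 asks how these genes stood after 8 weeks of voluntary EtOH drinking. Cp was higher in the EtOH rats than in the water rats by 1.86-fold, and the log2 fold changes of the other 7 tested iron genes lay between -0.17 and 0.11. In the water rats Cp measured 13.2, 17.8, 19.7, 8.52 and 17.5 CPM, from 25 to 104 reads. In the EtOH rats it measured 24.6, 26.9, 43.3, 27.7 and 22.6 CPM, from 73 to 189 reads. Every EtOH rat was above every water rat, and EtOH rat 3 stood well above the other EtOH rats. The group means were 15.3 ± 4.49 and 29.0 ± 8.24 CPM (SD, n = 5 each), with a log2 fold change of 0.89 ± 0.21 (SE) and a 95% interval of 0.44 to 1.35. Without EtOH rat 3 the EtOH rats averaged 25.4 ± 2.27 CPM (SD, n = 4) and the log2 fold change was 0.70. The 2 groups did not overlap for 0.843% of all tested genes, and for 0.451% with the EtOH rats higher. Cp was picked for this value, so nothing is read from it.

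Of the other iron export genes, Heph encodes hephaestin, a ferroxidase related to ceruloplasmin. The water rats had 13.8, 17.3, 29.9, 10.6 and 19.6 CPM and the EtOH rats 16.5, 13.04, 16.7, 26.1 and 21.5 CPM. The groups lay over each other, and the log2 fold change of Heph was -0.0015 ± 0.24 (SE). Slc40a1, the gene of ferroportin, the known iron exporter of animal cells, was below the expression filter in both experiments and was not tested. The water rats had 3.04, 2.93, 1.70, 2.39 and 2.496 CPM of Slc40a1, which rest on 7 to 13 reads, and the EtOH rats 0.337, 1.04, 1.604, 1.33 and 1.43 CPM, which rest on 1 to 7 reads. Every EtOH rat was below every water rat for Slc40a1, and the closest values of the groups were 1.70 and 1.604 CPM. The groups did not overlap, with the EtOH rats lower, for 0.393% of all tested genes. Slc40a1 is not among the tested genes, and no share was computed for genes below the filter. Nothing is therefore read from this separation. With no filter on low counts, edgeR gave Slc40a1 a log2 fold change of -1.05. Its unadjusted p was 0.0196 and its FDR 0.811 in edgeR's test (Benjamini-Hochberg adjustment).

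The iron uptake genes differed less between the groups of experiment 1. Tf, which encodes transferrin and is made in the brain mainly by oligodendrocytes, had 572, 551, 457, 446 and 592 CPM in the water rats and 546, 540, 371, 365 and 648 CPM in the EtOH rats. The EtOH rats held both the lowest and the highest value, and the log2 fold change of Tf was -0.09 ± 0.14 (SE). Tfrc, the transferrin receptor gene, had 339, 230, 270, 220 and 267 CPM in the water rats and 295, 215, 221, 233 and 217 CPM in the EtOH rats. EtOH rat 1 and water rat 1 were each the highest of their group, and the log2 fold change of Tfrc was -0.17 ± 0.11 (SE). Slc11a2, the gene of the divalent metal transporter DMT1, averaged 75.4 ± 6.10 and 76.9 ± 6.58 CPM in the water and EtOH rats (SD, n = 5 each), a log2 fold change of 0.03 ± 0.08 (SE).

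Fth1, the heavy chain of the iron store ferritin, averaged 500.1 ± 50.5 CPM in the water rats and 530 ± 53.2 CPM in the EtOH rats, a log2 fold change of 0.08 ± 0.08 (SE). Near-identical copies of Fth1 exist in the genome and reads placed in several positions are not in the gene counts, so its level is uncertain. Aco1 and Ireb2, which encode the iron regulatory proteins IRP1 and IRP2, had log2 fold changes of 0.11 ± 0.11 and 0.01 ± 0.10 (SE). The water and EtOH rats averaged 60.2 ± 6.27 and 65.0 ± 10.2 CPM for Aco1, and 56.6 ± 8.49 and 57.0 ± 3.49 CPM for Ireb2. Both groups overlapped for each of the 7 tested genes other than Cp, of which 4 had a log2 fold change above 0 and 0 had an unadjusted p under 0.05 in edgeR, beside 5.56% of all tested genes. Their median log2 fold change was 0.01, against -0.0013 over all tested genes.

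**Figure D1:**
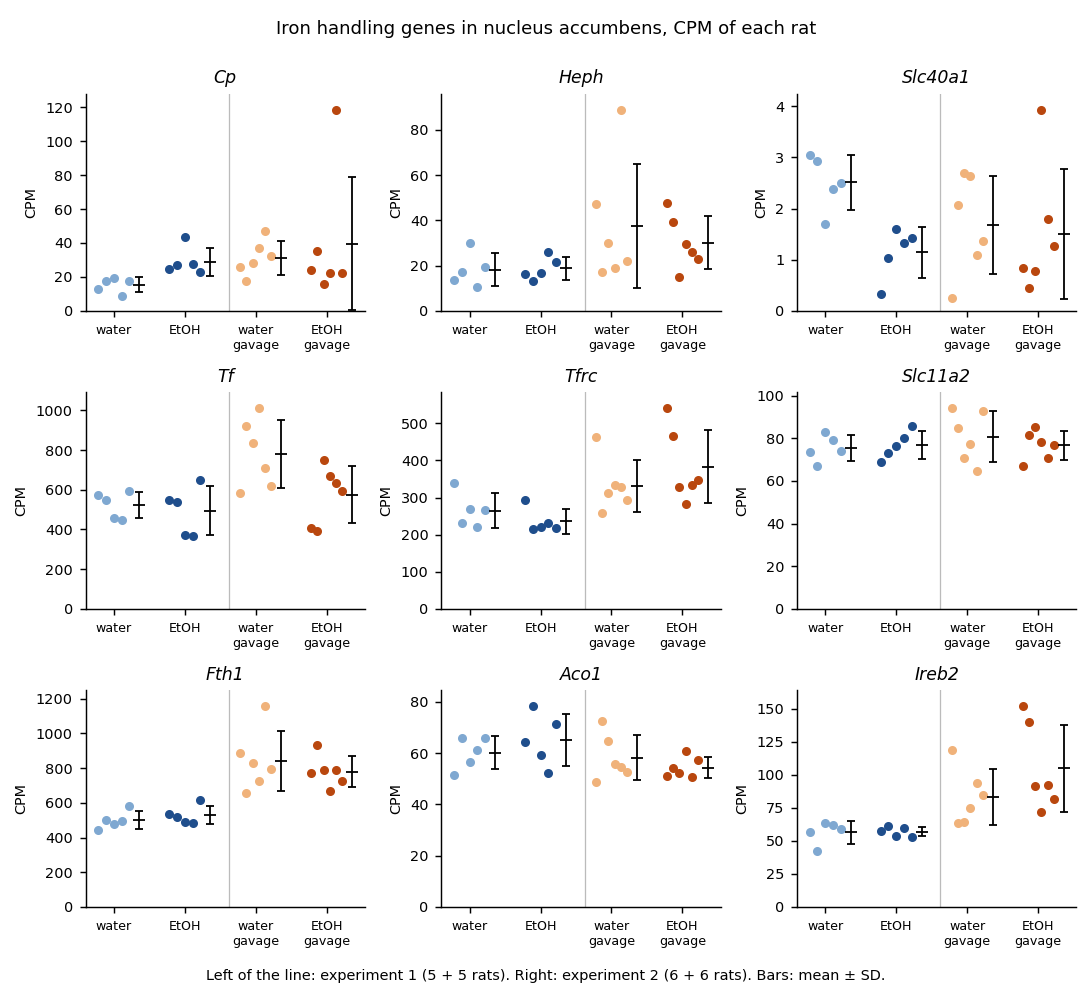
CPM of the 9 iron handling genes in each rat, with the vertical axis from 0 and the 4 groups side by side, and bars for mean ± SD. Cp of the EtOH rats of experiment 1 lay at 22.6 to 43.3 CPM, above the 8.52 to 19.7 CPM of the water rats, while EtOH gavage rat 5 of experiment 2 stood alone at 118 CPM.

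The comparison of experiment 2 asks what additional EtOH given by gavage did in rats that all drank EtOH, and its values were not used to pick Cp. Cp did not separate the groups, and EtOH gavage rat 5 decided the direction of its mean. The water gavage rats had a lowest, median and highest Cp level of 17.6, 30.2 and 46.8 CPM. The EtOH gavage rats had 15.7, 23.3 and 118 CPM. The groups overlapped for Cp and for the other 7 tested iron genes, beside 0.0116% of all tested genes (1 gene, lower after EtOH gavage) whose groups did not overlap. Without rat 5 the highest EtOH gavage rat was at 35.3 CPM. The means were 31.3 ± 10.1 and 39.7 ± 39.0 CPM (SD, n = 6 each), and edgeR gave a log2 fold change of 0.35 ± 0.45 (SE), a 95% interval of -0.63 to 1.32 and a Benjamini-Hochberg FDR of 0.717. On the log2 CPM scale, where a single high rat weighs less, the group means were 4.91 and 4.94, and the difference of 0.03 had p = 0.97 in a two-sided exact permutation test over the 924 splits of the rats, whose smallest possible p is 0.00216.

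Leaving out EtOH gavage rat 5 turned the direction of Cp. The EtOH gavage rats then averaged 24.0 ± 7.11 CPM (SD, n = 5), and edgeR gave a log2 fold change of -0.38. The difference in mean log2 CPM was -0.36, with p = 0.212 in the exact permutation test. The interval over all 12 rats included 0. It also included the 0.89 of experiment 1, but Cp was picked for that value, so no conclusion is drawn from this. The 2 contrasts differ in design and control group, and the difference between them was not tested for Cp.

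Heph had a lowest, median and highest level of 17.3, 25.9 and 88.6 CPM after water gavage and 14.9, 27.8 and 47.5 CPM after EtOH gavage. Water gavage rat 5 was far above the other rats, and the groups overlapped. The log2 fold change of Heph was -0.31 ± 0.41 (SE, FDR 0.717 in edgeR's test), and without that rat it was 0.16. Slc40a1 had 0.258 to 2.69 CPM after water gavage and 0.453 to 3.92 CPM after EtOH gavage, from 2 to 27 reads. The groups of experiment 2 overlapped for Slc40a1, which was again below the filter.

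Tf was the iron gene with the lowest p-value in experiment 2. The lowest, median and highest Tf level were 585, 773 and 1010 CPM in the water gavage rats and 393, 614 and 748 CPM in the EtOH gavage rats. EtOH gavage rats 1 and 2, at 409 and 393 CPM, lay below every water gavage rat, and the other EtOH gavage rats lay within the water gavage range. The means were 779.8 ± 170.2 and 575 ± 144 CPM (SD, n = 6 each), a log2 fold change of -0.44 ± 0.19 (SE) with an unadjusted p of 0.0358 and a Benjamini-Hochberg FDR of 0.681 in edgeR. Tf was thus the single gene of the 8 tested with an unadjusted p under 0.05, beside 1.32% of all tested genes (0.566% lower and 0.751% higher after EtOH gavage), and it did not pass the FDR threshold. Leaving out any of water gavage rats 2, 3 and 4 or EtOH gavage rats 1, 2 and 6 removed it from that count, while its log2 fold change stayed between -0.53 and -0.35 with each rat left out.

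Tfrc and Ireb2 were higher on average after EtOH gavage, with groups that overlapped. Tfrc had a lowest, median and highest level of 259, 320 and 463 CPM after water gavage and 283, 341 and 540 CPM after EtOH gavage. Its log2 fold change was 0.21 ± 0.18 (SE, FDR 0.681 in edgeR's test). Ireb2 had 63.8, 79.7 and 119 CPM after water gavage and 71.7, 92.1 and 152 CPM after EtOH gavage, which corresponds to a log2 fold change of 0.33 ± 0.21 (SE, FDR 0.681 in edgeR's test). In both genes the 3 highest rats were water gavage rat 1 and EtOH gavage rats 1 and 2. The other genes had smaller differences. Slc11a2 had a log2 fold change of -0.07 ± 0.12, Fth1 of -0.11 ± 0.13 and Aco1 of -0.10 ± 0.12 (SE), with FDR values of 0.755, 0.703 and 0.699 in edgeR's test.

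**Figure D2:**
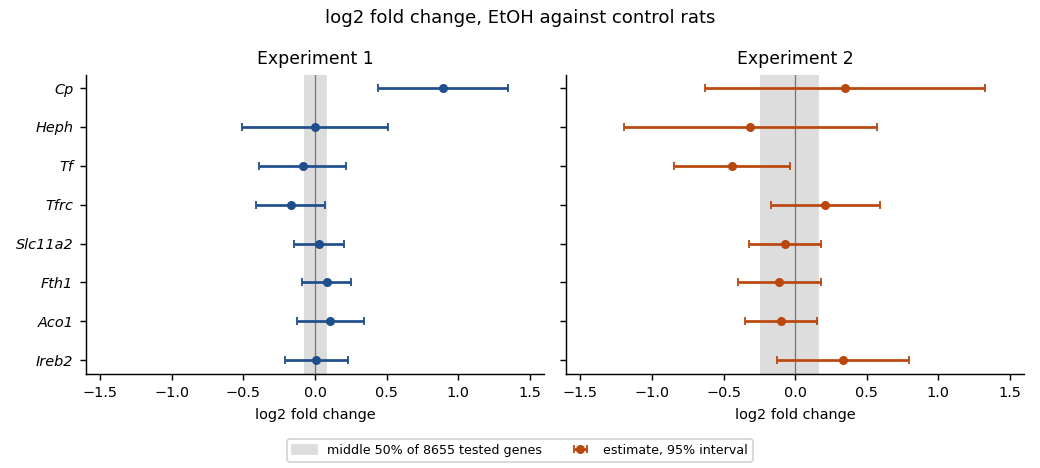
Log2 fold change (EtOH against control rats) of the 8 tested iron genes in each experiment, with points for the estimate, bars for the 95% interval and a grey band for the middle 50% of all tested genes. In experiment 1 Cp stood at 0.89 and the other genes between -0.17 and 0.11, and in experiment 2 the interval of Cp ran from -0.63 to 1.32 and that of Tf from -0.85 to -0.03.

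Set side by side, the difference between the log2 fold changes of the 2 experiments was tested for the 7 tested genes other than Cp with an interaction term in edgeR. The largest were 0.39 for Tfrc, which was lower on average in the EtOH rats of experiment 1 and higher in those of experiment 2, and -0.35 for Tf. All 7 had a Benjamini-Hochberg FDR of at least 0.814 in edgeR, and 0 of the 8176 genes tested in both experiments had an FDR under 0.1, with 154 at an unadjusted p under 0.05. This test put all 4 groups in 1 fit with a single spread for each gene. The common biological coefficient of variation was 11.1% in experiment 1 and 31.4% in experiment 2, so p-values of this test are approximate. The control groups also differ, and the paper states that its experiments cannot be compared directly. The spread between rats set what could be seen. The biological coefficient of variation that edgeR gives a gene leaves out counting noise and is drawn toward that of other genes. It is therefore not the SD over the mean. For Cp it was 21.2% in experiment 1, larger than that of 96.7% of the tested genes. In experiment 2 it was 53.97%, larger than that of 93.5%. Heph was likewise variable, at 25.1% and 49.1%, whereas Slc11a2 had 8.10% and 16.8%.

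In each experiment, the rat with the most Cp also had the highest level of markers of cells that cover the brain. A list of 10 markers of meningeal fibroblasts, the collagen-producing cells of the meninges, was summed in each rat. The sum was 84.6 to 117 CPM in the water rats and 98.7 to 126 CPM in EtOH rats 1, 2, 4 and 5, but 272 CPM in EtOH rat 3. It was 50.1 to 149 CPM in the water gavage rats and 51.6 to 62.0 CPM in the EtOH gavage rats other than rat 5, which had 504 CPM. Of the 10 markers, Col1a2 and Ogn were at 0 in every rat, 7 of the remaining 8 were highest in EtOH rat 3 among the rats of experiment 1, and 8 of 8 were highest in EtOH gavage rat 5 in experiment 2. Col3a1, a fibrillar collagen, had 118 CPM in EtOH gavage rat 5 and at most 24.2 CPM in the other rats of experiment 2, and Igf2, a growth factor of the meninges and choroid plexus, had 123 CPM in EtOH rat 3 and at most 54.4 CPM in the other rats of experiment 1. In experiment 1, 3 markers of this list were tested, and all 3 had a log2 fold change above 0, with a median of 0.64, 2 at an unadjusted p under 0.05 and 0 at an FDR under 0.1 in edgeR. In experiment 2, 5 were tested and 4 were above 0, with a median of 0.68 and 0 at an FDR under 0.1. Markers of ependymal cells, which line the ventricles, were also higher in the EtOH rats of experiment 1, with groups that overlapped. Their sum had a median of 49.7 CPM (21.9 to 95.2) in the water rats and 114 CPM (62.7 to 122) in the EtOH rats. The 2 tested ependymal markers, Ak7 and Foxj1, had log2 fold changes of 1.23 ± 0.46 and 0.65 ± 0.28 (SE) with an FDR of 0.866 in edgeR. In experiment 2 the ependymal sum had a median of 47.2 CPM after water gavage and 28.5 CPM after EtOH gavage. Other lists shifted as well in experiment 1, with sums that overlapped. Of the markers of mural cells of vessel walls, 6 of 6 tested were above 0 (median log2 fold change 0.12). Of the medium spiny neuron markers, 1 of 13 was (median -0.24). Neuroblast markers had 3 of 5 above 0 (median 0.38) and endothelium 6 of 8 (median 0.08). Cortical neurons had 6 of 7 and oligodendrocyte precursors 5 of 8 (median 0.10 each). Astrocyte, oligodendrocyte and microglia medians were 0.012, 0.0021 and -0.0030. In experiment 2 mural cells had 2 of 6 (median -0.27) and medium spiny neurons 5 of 13 (median -0.26). Medians of neuroblasts, endothelium, cortical neurons and precursors were then 0.09, -0.25, -0.05 and -0.22. The part of any of these cell types in the Cp values was not tested.

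The relation was also computed within groups, as the correlation of log2 CPM after subtraction of group means. Cp and the meningeal fibroblast sum gave Pearson's r = 0.65 and Spearman's rho = 0.55 over the 10 rats of experiment 1 (permutation p = 0.0372 and 0.0792). They gave r = 0.80 and rho = 0.50 over the 12 rats of experiment 2 (permutation p = 0.0571 and 0.0947). Adjusted over the 26 relations of Cp with 13 marker lists in 2 experiments, the p-values of r were 0.218 and 0.247, and those of rho were both 0.41 (permutation test). Without the 2 rats farthest from the median of Cp, r was 0.42 and 0.41, so the relation rests in part on those rats. Choroid plexus epithelium, a further source of ceruloplasmin, gave r = 0.16 and rho = 0.13 with Cp in experiment 1 (permutation p = 0.703 and 0.743) and r = 0.80 and rho = 0.57 in experiment 2 (permutation p = 0.0419 and 0.0629, adjusted 0.218 and 0.409, r = 0.66 without the 2 rats). Its markers had a summed level of 9.07 to 23.4 CPM in experiment 1 and 5.69 to 16.01 CPM in experiment 2 outside EtOH gavage rat 5, which had 65.3 CPM. Only 2 of the 9 detected markers were highest in that rat, Aqp1 at 42.1 CPM and Kcnj13 at 17.9 CPM, so most of the list did not follow the sum. Of the defining markers of this epithelium, Otx2 was at 0 in every rat, as Col1a2 and Ogn of the fibroblast list were. Whether reads could be counted on these symbols at all is not known, so nothing is read from the 0 of Otx2. Ttr, the hallmark transcript of this epithelium, reached at most 8.52 CPM in experiment 1 and 1.16 CPM in experiment 2.

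**Figure D3:**
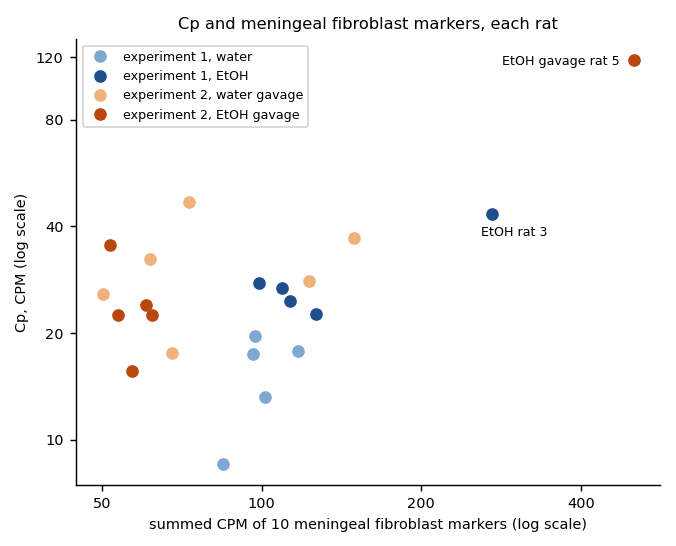
Cp level (CPM, log scale) against the summed level of 10 meningeal fibroblast markers (CPM, log scale), 1 point for each of the 22 rats. EtOH rat 3 (272 and 43.3 CPM) and EtOH gavage rat 5 (504 and 118 CPM) lay farthest to the right.

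None of the relations of Cp with another iron gene passed the test. Over 16 relations of Cp with 8 genes in the 2 experiments, the largest r was that with Heph in experiment 1, with r = 0.52 and rho = 0.48 over 10 rats (permutation p = 0.172 and 0.197) and r = 0.50 without the 2 rats farthest from the median of Cp. The lowest adjusted p was 0.687 for r and 0.545 for rho (permutation test). The 10 genes whose pattern was most like that of Cp were taken from the 8176 genes tested in both experiments, by the lower of the 2 Pearson correlations with Cp after subtraction of group means. They were Cpq, Fkbp9, Cct6a, Fmod, Bnip2, Serpinb6, Cmbl, Slc6a20, Cct4 and Polr2m, with a lower r between 0.63 and 0.76 over 10 and 12 rats. Fmod, which encodes fibromodulin, a proteoglycan of collagen matrix, is also on the meningeal fibroblast list, and its log2 fold change in experiment 1 was 1.03 ± 0.29 (SE). EtOH gavage rat 5 was the highest rat of experiment 2 for 7 of the 10 genes, as it was for Cp. The 10 genes were picked for their likeness to Cp in these same rats, so this count is no separate support. No other iron gene was among the 10.

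Cp shares part of its position with Hps3, which runs on the opposite strand in the GRCr8 annotation and encodes a subunit of a complex for lysosome-related organelles. Reads from a shared stretch could not be told apart by strand in experiment 1, whose libraries were not strand-specific. Reads that fit several genes were set apart as ambiguous in the count files. They equalled 0.374% to 0.406% of the reads on genes in experiment 1. Whether exons of both genes overlap in rn6 was not examined, and whether experiment 2 was counted by strand is not known. Hps3 itself averaged 33.9 ± 4.54 CPM in the water rats and 36.3 ± 3.11 CPM in the EtOH rats (SD, n = 5 each), a log2 fold change of 0.09 ± 0.11 (SE). In the strand-specific libraries of experiment 2 it averaged 53.8 ± 7.09 and 54.6 ± 10.1 CPM (SD, n = 6 each), a log2 fold change of 0.02 ± 0.14 (SE). Slc40a1 and Heph likewise overlap a listed gene on the opposite strand, Asnsd1 and Vsig4.

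In experiment 2, iron genes varied with a property of the library that other genes also followed. Reads outside genes here means reads that the counting placed in no annotated feature. They may include reads from introns, and the counting options are not known. Their share, out of these and the reads counted on genes, was 50.1% ± 3.09 in the water gavage rats (SD, n = 6). It was 52.9% ± 3.42 in the EtOH gavage rats (SD, n = 6). The share was 54.5%, 58.0% and 56.4% in water gavage rat 1 and EtOH gavage rats 1 and 2. Within groups, Ireb2 followed this share with r = 0.97 and rho = 0.94 over the 12 rats, with permutation p = 4e-05 and 1e-04, and r was 0.93 without the 2 rats farthest from the median share. Tfrc had r = 0.92 and rho = 0.83 (permutation p = 0.00031 and 0.00201, r = 0.82 without the 2 rats), and Tf had r = -0.85 and rho = -0.72 (permutation p = 0.003 and 0.017, r = -0.77 without the 2 rats). Over 18 relations the adjusted p of r was 0.00072 for Ireb2, 0.00279 for Tfrc and 0.0109 for Tf (permutation test). The corresponding adjusted p of rho was 0.0018, 0.0181 and 0.0765 (permutation test). Of the 9 iron genes, 7 had an adjusted p of r under 0.05 and 3 (Ireb2, Tfrc and Slc40a1) an adjusted p of rho under 0.05 (permutation test). Over the 8655 tested genes the median absolute r with this share was 0.78. An absolute r at least as large as that of Ireb2 was found for 2.26% of them, as large as that of Tfrc for 19.1% and as large as that of Tf for 36.7%, so a relation with this share is not particular to iron genes.

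Cp itself had r = 0.04 and rho = 0.22 with this share over the 12 rats (permutation p = 0.935 and 0.517, r = 0.23 without the 2 rats), and Slc11a2 had r = -0.06 and rho = 0.08 (permutation p = 0.845 and 0.81). An absolute r at least as large was found for 98.7% and 97.4% of the tested genes. With the share as a covariate, an alternative chosen after seeing the data, the log2 fold change in experiment 2 was -0.20 for Tf, -0.05 for Tfrc, -0.0066 for Ireb2 and -0.70 for Heph. With the 3 rats above 54% left out, Tf had a log2 fold change of -0.31 and 0 of the 8 genes had an unadjusted p under 0.05 in edgeR. In experiment 1 the share lay between 48.4% and 51.1% in all rats, and Aco1 followed it with r = -0.84 and rho = -0.67 (permutation p = 0.00182 and 0.0336, adjusted 0.0109 and 0.101, r = -0.66 without the 2 rats). The part of this share in the differences between groups was not tested beyond these fits.

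**Figure D4:**
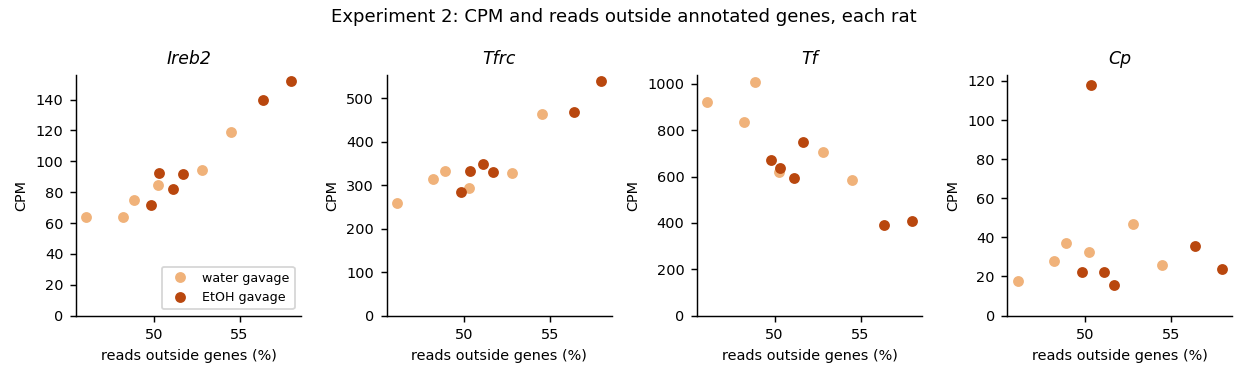
CPM of Ireb2, Tfrc, Tf and Cp in the 12 rats of experiment 2 against the share of reads placed in no annotated feature (%, labelled reads outside genes), with the vertical axis from 0. Ireb2 and Tfrc were highest and Tf lowest in EtOH gavage rats 1 and 2, which had the largest shares (58.0% and 56.4%), while Cp of 118 CPM was found at a share of 50.3%.

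A wider set of 85 genes of iron, haem and copper handling was read from the same fits, of which 79 were listed, 46 were tested in experiment 1 and 47 in experiment 2. None was called at an FDR under 0.1 by edgeR (0 of 46 and 0 of 47). In experiment 1, 2 genes were higher and 1 lower at an unadjusted p under 0.05, beside 3.02% higher and 2.54% lower over all tested genes, and 24 of 46 had a log2 fold change above 0, beside 49.4% of all. In experiment 2, 0 of 47 reached that p, beside 1.32%, and 17 of 47 were above 0, beside 49.2% of all. The median log2 fold change of the set was 0.01 in experiment 1 and -0.13 in experiment 2, against -0.0013 and -0.0061 over all tested genes.

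Copper supply was included because ceruloplasmin needs copper to work. In experiment 1, 6 of the 7 tested copper genes had a log2 fold change above 0, with a median of 0.08. Mt3, a brain metallothionein that binds zinc and copper, averaged 351 ± 14.7 CPM in the water rats and 417 ± 48.8 CPM in the EtOH rats (SD, n = 5 each), a log2 fold change of 0.25 ± 0.07 (SE, FDR 0.811 in edgeR's test). Atox1, the chaperone that hands copper to the secretory pathway, had a log2 fold change of 0.19 ± 0.17 (SE). In experiment 2, 2 of 8 copper genes were above 0 and the median was -0.24. Mt3 then averaged 136.5 ± 71.6 CPM after water gavage and 89.6 ± 58.3 CPM after EtOH gavage (SD, n = 6 each), for a log2 fold change of -0.61 ± 0.54 (SE), and Atp7a, a copper pump, had 0.35 ± 0.27 (SE).

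Of the uptake and reduction genes, Slc39a14, which encodes the ZIP14 metal importer, averaged 52.3 ± 7.78 CPM in the water rats and 40.7 ± 2.60 CPM in the EtOH rats (SD, n = 5 each), a log2 fold change of -0.36 ± 0.11 (SE, FDR 0.811 in edgeR's test). In experiment 2 it was 52.8 ± 7.53 CPM after water gavage and 62.1 ± 6.57 CPM after EtOH gavage (SD, n = 6 each), for a log2 fold change of 0.23 ± 0.12 (SE). The difference of 0.60 between the experiments had an unadjusted p of 0.00151 and an FDR of 0.814 in edgeR's interaction test, with the limits of that test given above. Steap2, a metalloreductase, had log2 fold changes of -0.42 ± 0.21 and 0.22 ± 0.35 (SE) in experiments 1 and 2. Slc22a17, a receptor for the iron carrier lipocalin, had 0.00086 ± 0.06 and -0.69 ± 0.47 (SE).

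Among storage genes, 1 of 4 tested was above 0 in each experiment. Pcbp4, of a family that includes iron chaperones, had the lowest value of the whole set in experiment 2, -0.76 ± 0.63 (SE). Ftl1, the light chain of ferritin, was below the filter, with 25 to 66 reads in experiment 1 and 0 to 76 in experiment 2, and it also has near-identical copies. Among regulators, Bmp6, which signals iron stores to hepcidin, had the highest value of the set in experiment 1, 0.27 ± 0.19 (SE), and Fbxl5, which removes IRP2 protein when iron is plentiful, had 0.28 ± 0.16 (SE) in experiment 2. For haem, 5 of 11 tested genes were above 0 in experiment 1 and 2 of 11 in experiment 2. Abcg2, a transporter that exports porphyrins, had -0.38 ± 0.24 (SE) in experiment 1. For mitochondrial iron and iron-sulphur clusters, 8 of 15 were above 0 in experiment 1, with Sfxn1, a carrier of the mitochondrial inner membrane, at 0.21 ± 0.09 (SE, FDR 0.866 in edgeR's test). In experiment 2, 8 of 17 were above 0, with Fam96b, a factor of iron-sulphur protein assembly, at -0.52 ± 0.40 (SE).

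**Figure D5:**
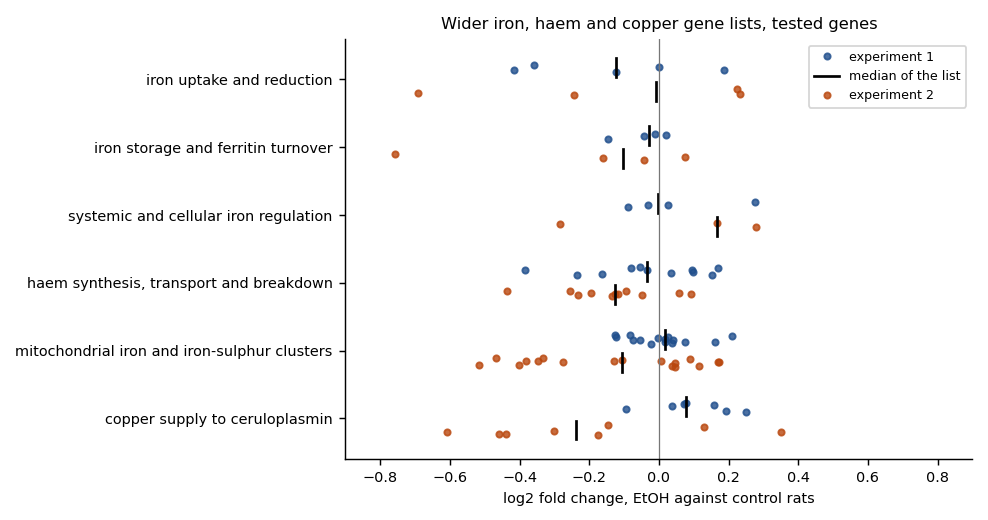
Log2 fold change (EtOH against control rats) of every tested gene of the 6 wider lists, 1 point for each gene and a black line for the median of each list. The medians lay between -0.12 and 0.08 in experiment 1 and between -0.24 and 0.17 in experiment 2, and 0 genes passed an FDR under 0.1 in either.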

How the data were processed

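PolyA+ RNA of the NAc was sequenced from 22 rats, 1 library each, and the sample labels gave the groups and replicate numbers. The authors aligned the reads to rn6 (Rnor_6.0) with TopHat2 (2.0.13 in the submitters' processing notes) and deposited raw read counts per gene symbol from htseq-count (HTSeq 0.5.3p3 and 0.6.0 in the notes). Its options and the annotation release were not given in the sources used here. Reads placed in several positions are not in the gene counts, and 5 summary lines were left out of library sizes. The reads placed in no feature among them, called reads outside genes here, gave the share used as a covariate.

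From these counts, each experiment was fitted alone in edgeR 4.0.16 (R 4.3.3) with TMM, glmQLFit, glmQLFTest and Benjamini-Hochberg adjustment, over genes whose base mean exceeded the median (43.6 and 66.4 counts), as in the study. CPM is the count scaled to the reads a library had on genes times its TMM factor, and log2 CPM used a prior count of 2. Standard errors were derived from the F statistic. Correlations used 100000 permutations within groups. The scripts were tested on simulated counts.

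The 9 genes, the gene and marker lists and the rule for named genes were chosen with earlier results of these data known. The rule named the 9 genes, the 4 highest and the 4 lowest fold changes of the wider set in each experiment and those with an unadjusted p under 0.05, the 10 genes most like Cp, and genes overlapping one of the 9. A gene of the wider set that this rule covers is not reported here. Alternatives were DESeq2 1.42.0 with and without a prior, DESeq2 size factors, no filter, at least 10 counts in every rat, all 4 groups together, the replicate number as a block and each rat left out. The share of reads outside genes as a covariate and the removal of 3 rats were added after seeing the data. No genome of the rn6 build was used, so positions are given only for RefSeq sequences of GRCr8.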

Additional observations from a re-analysis of the deposited data

Results flagged for a closer look

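Each of the 9 iron genes was scanned in each of the 4 groups for a rat far from the rest, by Dixon's ratio of the gap to the range. Of 36 groups scanned, 4 passed the 95% limit, where independent groups would give about 1 in 20, or 1.8. The groups share the same rats and include Cp of experiment 1, which was picked on those values. The 4 are therefore not weighed against that figure. Cp was 43.3 CPM in EtOH rat 3 of experiment 1, against 22.6 to 27.7 CPM in the other EtOH rats (gap over range 0.758, limit 0.71). Cp was 118 CPM in EtOH gavage rat 5 of experiment 2, against 15.7 to 35.3 CPM in the other rats of its group (0.808, limit 0.625). Tfrc was 295 CPM in EtOH rat 1 of experiment 1, against 215 to 233 CPM (0.777, limit 0.71). Tfrc was 463 CPM in water gavage rat 1 of experiment 2, against 259 to 333 CPM (0.639, limit 0.625). The 2 rats with high Cp were also those with the highest meningeal fibroblast marker sums, 272 and 504 CPM, and water gavage rat 1 had 54.5% of reads outside genes, the largest share of its group. The part of either in these values was not tested.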

How the results depend on the processing

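In experiment 1 the log2 fold change of Cp was above 0 in all 18 other fits. Cp was picked for being higher there, so this sign was given beforehand and lends no support. The log2 fold change was 0.39 in DESeq2 with a fold change prior and 0.70 to 1.003 with each rat left out. DESeq2, with and without a prior, had 11 genes at an FDR under 0.1 where edgeR had 0. Counts of iron genes in experiment 1 include Cp, which was picked on this comparison, so nothing is read from them. At an FDR under 0.1 the count was 1 in both DESeq2 fits. At an unadjusted p under 0.05 it was 1 in edgeR, beside 5.56% of all tested genes, and 2 with no filter and in both DESeq2 fits, 2 with the replicate block, 0 with all 4 groups in 1 fit, and 1 to 2 with each rat left out. Slc40a1, untested in the main fit, was in the count with no filter (edgeR, unadjusted p = 0.0196). It was also in the count of both DESeq2 fits (unadjusted p = 0.0302 and 0.0303). Leaving out a rat gave 0 to 16 genes at an FDR under 0.1 in experiment 1, with 16 without water rat 5. In experiment 2 that FDR count was 0 in every fit. Its iron genes with an unadjusted p under 0.05 numbered 0 to 2 with a rat left out (2 without water gavage rat 1) and 0 without the 3 rats above 54% of reads outside genes. Cp of experiment 2 ranged from -0.38 to 0.51 with a rat left out and was reversed, at -0.38, without EtOH gavage rat 5. With a rat left out, Fth1 of experiment 2 ranged from -0.17 to 0.0101 and Heph from -0.49 to 0.16, and both reversed without water gavage rat 5. With the share of reads outside genes as a covariate, Tfrc, Aco1 and Ireb2 reversed to -0.054, 0.0067 and -0.0066. The causes were not tested. Replicate numbers did not pair the rats, since same-numbered rats correlated between -0.126 and 0.144 in experiment 1 and between -0.759 and 0.836 in experiment 2, and the block moved no other count of calls by more than 1.5 times. Depth limits Slc40a1 (1 to 27 reads), and p-values of the group comparisons set a difference against the variation among these rats.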

Other observations

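Over the same 26 relations of Cp with marker lists, the lowest adjusted p of r was 0.0502 (permutation test), reached by 2 lists in different experiments. Red blood cell markers had r = 0.88 and rho = 0.81 with Cp over the 10 rats of experiment 1 (permutation p = 0.00224 and 0.0111, r = 0.72 without the 2 rats farthest from the median of Cp). In experiment 2 the same list had r = 0.05 and rho = -0.03 over 12 rats (permutation p = 0.869 and 0.938). Its sum lay at 38.9 to 127 CPM in the water rats and 51.0 to 116 CPM in the EtOH rats, so it did not separate the groups. Neuroblast markers, 3 of which (Dcx, Dlx1 and Cd24) the study had listed from these libraries, had r = 0.77 and rho = 0.77 with Cp in experiment 1 (permutation p = 0.0154 and 0.0204, adjusted 0.133 and 0.232, r = 0.73 without the 2 rats). In experiment 2 they had r = -0.56 and rho = -0.61 (permutation p = 0.00386 and 0.0268, r = -0.41 without the 2 rats), the opposite sign. The neuroblast sum was 553 to 678 CPM in the water rats and 652 to 774 CPM in the EtOH rats. Astrocyte markers, of the cell type known as the main brain source of ceruloplasmin, had r = -0.20 and rho = -0.26 with Cp in experiment 1 (permutation p = 0.592 and 0.496) and r = 0.40 and rho = 0.39 in experiment 2 (permutation p = 0.204 and 0.20). The astrocyte sum was 8018 to 9003 CPM in the water rats and 8258 to 9334 CPM in the EtOH rats. The strength of these relations was not compared between lists.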
